A study of Mus musculus with 2 samples.

Results

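HMGA proteins are small chromatin proteins that bend and open AT-rich DNA through short AT-hook motifs and so help transcription factors assemble on promoters and enhancers. Hmga1 is abundant in dividing cells, and its product is a textbook part of the complex that forms on the interferon-beta gene enhancer. Hmga2 is mainly active in the embryo and in progenitor cells, and its messenger RNA is a classic target of the let-7 microRNAs. Here 3 rows of 16218 genes were taken by symbol: Hmga1, Hmga2 and Hmga2-ps1, a processed copy of Hmga2. The 3 were proposed as a group chosen by their counts and FPKM in these same 2 libraries, so their values are a description.

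Polyadenylated RNA was measured in C57BL/6J mouse bone marrow-derived macrophages, grown for 5 days in 10% fetal bovine serum and 10% L929 cell supernatant and then given LPS at 10 ng/ml for 3 h. The WT library came from Lyz2-Cre cells. The TKO library came from cells that were mir-106a~363-/- and mir-106b~25-/-, and that carried mir-17~92flox/flox together with Lyz2-Cre, in which Lyz2-Cre, active in myeloid cells, can remove the floxed cluster. Both libraries thus carried the Cre, and no unstimulated library was analysed here. Each genotype had 1 library, so no difference below has a replicate check, and genotype cannot be told apart from anything else that differed between these cultures. "Higher" and "lower" describe these 2 libraries only.

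Total counts were 10764519 in WT and 10836855 in TKO. Of 16218 genes, 11662 had a mean of at least 1 CPM (counts per 1000000 counts of the library) and are called measured, all 3 HMGA rows among them. A fold is the ratio of CPM with its 95% counting interval. A log2 ratio is that of TKO over WT on the log2(CPM + 0.5) scale, which understates differences of low genes. All 10 macrophage markers examined were measured in both libraries, with Csf1r, the receptor for macrophage colony-stimulating factor, at 27207 and 30290 counts, the surface co-receptor gene Cd14 at 19665 and 18329, and the lysosomal gene Cd68 at 10513 and 11651. Their median log2 ratio was −0.03, with 0 of 10 at least 1.5-fold apart. Of all measured genes 5.26% lay lower and 2.83% higher by 1.5-fold or more with an interval leaving out equality. Their median was −0.04.

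The deleted clusters and let-7 enter through their seeds, the bases 2 to 8 that pair with a messenger RNA. The clusters encode 6 distinct mature microRNAs with the miR-17 seed, 2 with the miR-18 seed, 2 with the miR-19 seed and 3 with the miR-92 seed. Another 13 mature microRNAs of the clusters have other seeds, whose sites were not sought. Of the sites sought for the deleted clusters, only that of miR-17 was found in a 3' UTR of Hmga1 or Hmga2. Sites of let-7, which is not deleted, were found too. Both microRNAs are shown 5' to 3' from RefSeq (GRCm38.p6), seed in capitals.
mmu-miR-17-5p: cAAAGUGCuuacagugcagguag
mmu-let-7a-5p: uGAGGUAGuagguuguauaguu

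The matches in the longest annotated 3' UTR (GENCODE M21, GRCm38) are shown next on the transcript strand, with the 7 matching bases in capitals, because the 3' UTR is where such sites are usually sought; coding sequence, 5' UTRs and Hmga2-ps1 were not searched. Hmga2 held 1 match to the miR-17 site at chr10:120363029-120363035 and 4 to the let-7 site, all on the minus strand. Hmga1 held 1 let-7 match at chr17:27563292-27563298 on the plus strand.
Hmga2, miR-17 site: tctgcattcacgctGCACTTTtagccagag
Hmga2, let-7 site at chr10:120364225-120364231: ccgacattcaatttCTACCTCagcatcagt
Hmga2, let-7 site at chr10:120362988-120362994: cccactcctcaataCTACCTCtgaatgcta
Hmga2, let-7 site at chr10:120362550-120362556: tgatttgcaaggaaCTACCTCcacacttcc
Hmga2, let-7 site at chr10:120361692-120361698: atcaaaacacactaCTACCTCttaagtccc
Hmga1, let-7 site: cctctgttcacaaaCTACCTCtggacggtt

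Hmga1 (gene 15361, chromosome 17, 27556574 to 27563672, GRCm38.p6) was lower in the TKO library. It had 3790 counts in WT and 1104 in TKO, or 352 CPM (exact Poisson interval 341 to 363) and 102 CPM (96.0 to 108). The row was 3.46-fold lower (3.23 to 3.70), a log2 ratio of −1.78, and the counting intervals of the libraries did not overlap. The deposited estimates were fractional, 3789.69 and 1103.86, as estimated counts are where reads are divided between entries. The value of the row is therefore uncertain: how much of the difference lies in that division was not tested, and it is not shown to be the difference of the gene. In bulk RNA, fewer cells of a type and less RNA per cell cannot be told apart.

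**Figure D1:**
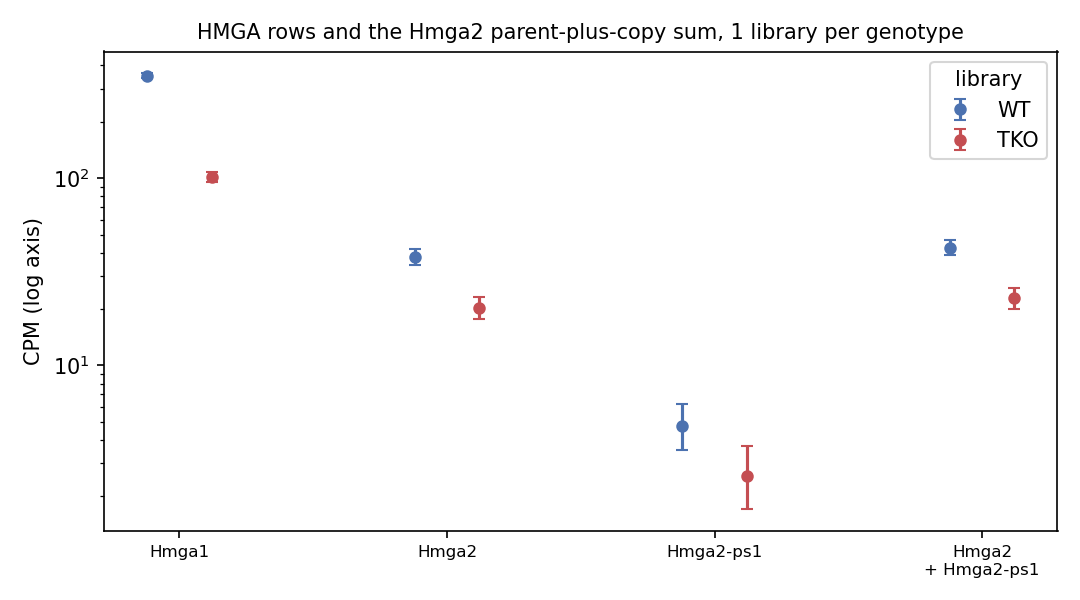
CPM (log axis) of each HMGA row and of Hmga2 with its copy in the WT and TKO libraries, 1 library each; points are values and bars the exact 95% Poisson counting interval. All rows lay lower in TKO, Hmga1 at 352 and 102 CPM, and Hmga2 with its copy at 42.6 and 22.9.

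Per length, the Hmga1 row was among the more abundant of these macrophages. Its deposited FPKM (fragments per kilobase of transcript, scaled to the library's total) was 208.51 in WT, rank 353 of 11662 measured genes, and 58.17 in TKO, rank 1311. Hmga2 had ranks 5643 and 7284, and Hmga2-ps1 8373 and 9421, so the order of the 3 rows was the same in both libraries.

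Hmga2 (gene 15364, chromosome 10, 120361268 to 120476469) was lower in TKO, and its copy was lower by a like amount. Hmga2 had 408 counts in WT and 220 in TKO, or 37.9 and 20.3 CPM, and was 1.87-fold lower (1.58 to 2.21). Hmga2-ps1 (gene 15365, chromosome 1, 176834624 to 176836133), a transcribed pseudogene, had 51 and 28 counts, or 4.74 and 2.58 CPM, and was 1.83-fold lower (1.13 to 3.02). In both rows the counting intervals of the ratio leave out equality, but that of the copy is wide because its counts are few.

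Summed, Hmga2 and Hmga2-ps1 had 459 and 248 counts, or 42.6 and 22.9 CPM, and were 1.86-fold lower in TKO (1.59 to 2.18). The copy's share was 11.1% in WT (exact binomial interval 8.39 to 14.3) and 11.3% in TKO (7.63 to 15.9), with overlapping intervals. The deposited estimates of both rows were whole numbers in both libraries, as were those of 79.2% of genes in WT and 79.4% in TKO. Per length, Hmga2 stood at 8.90 FPKM in WT and 4.77 in TKO, and Hmga2-ps1 at 3.16 and 1.73. By FPKM, Hmga1 was 23.4 times Hmga2 in WT and 12.2 times in TKO.

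The part of the copy that GENCODE annotates (Gm38158, 339 bases) aligned to the Hmga2 coding sequence over 327 bases with 322 identical (98.5%), 5 differences and 2 gaps. Of its 50-base windows 17.9%, and of its 100-base windows 0%, were found in Hmga2. A pair of the stretches that tell them apart is shown, parent first, on the transcript strand with the differing base in capitals. The differences are C471A and C583T, counted from the 5' end of the Hmga2 transcript.
Hmga2, first stretch: aacctgccgcccCggtgccacagaa
Copy, first stretch: aacctgccgcccAggtgccacagaa
Hmga2, second stretch: caaaaacaagagCccctctaaagca
Copy, second stretch: caaaaacaagagTccctctaaagca

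Hmga2-ps1 lies inside Sdccag8 (chromosome 1, 176814660 to 177020438), a centrosome gene on the same strand that had 141 counts in WT and 103 in TKO and was 1.38-fold lower (1.06 to 1.79). How many reads of the copy came from the host's transcript was not tested. Sdccag8 was chosen after its values were seen.

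All 3 rows were at least 1.5-fold lower in TKO with an interval leaving out equality, which 5.26% of measured genes were, and 1 of 3, Hmga1, was at least 2-fold lower, which 1.68% were. In the other direction, 1.02% lay higher by 2-fold or more. These calls come from the contrast on which the rows were singled out and are given as a description. By log2 ratio, Hmga1 was the gene with rank 17 from the lowest of 11662, Hmga2 had rank 285 and Hmga2-ps1 rank 405. In the authors' deposited table the log2 ratios of FPKM were −1.84 for Hmga1, −0.90 for Hmga2 and −0.87 for Hmga2-ps1.

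**Figure D2:**
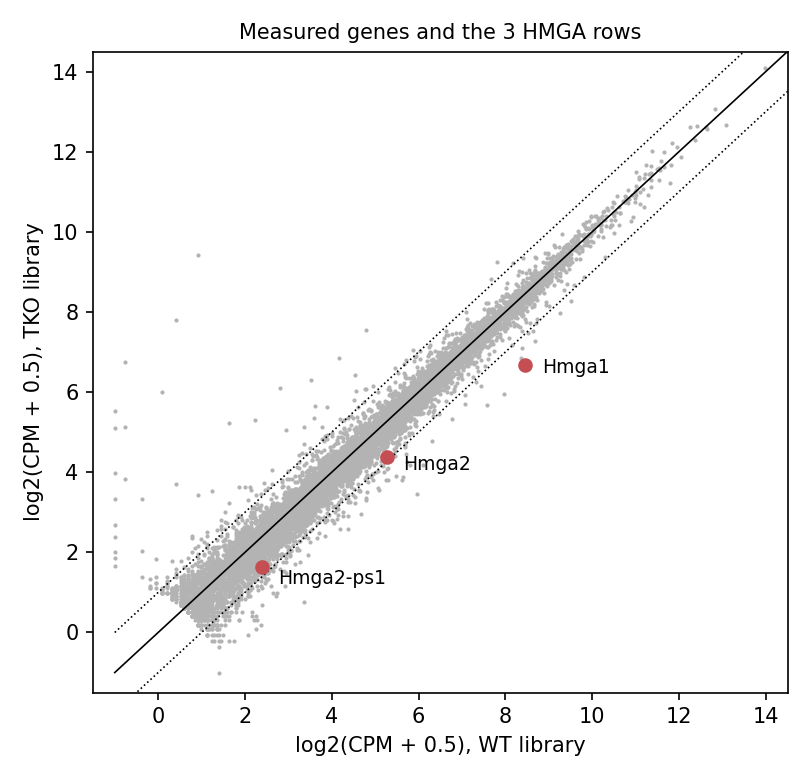
Log2(CPM + 0.5) of measured genes in the WT (x axis) and TKO (y axis) libraries; the solid line is equality, the dotted lines are 2-fold, and the HMGA rows are in red. Hmga1 lies below the lower 2-fold line, and Hmga2 and Hmga2-ps1 lie between equality and that line.

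The 3 rows together had 4249 counts in WT and 1352 in TKO and were 3.16-fold lower (2.98 to 3.37). This sum is mostly Hmga1 and shares the uncertainty of that row.

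How other parents and copies behaved was examined after these values were seen. The comparison covered 25 pairs in which a symbol ending in -ps or -rs and its parent both had a row, with either or both measured. Of the HMGA family, only Hmga2 with Hmga2-ps1 was entered. In 16 pairs both were measured. In 15 of the 16 the sum lay within 1.5-fold of equality, and the exception was Hmga2 with Hmga2-ps1, which was singled out on these same values. Most single genes were not called either: 5.26% of measured genes lay lower and 2.83% higher by the 1.5-fold rule. The pairs are not independent, since Pisd and Rps15a enter with several copies each. Outside the 16, Pdxk with Pdxk-ps, a copy not measured, had a sum 1.58-fold higher (1.31 to 1.91). Parent and copy can also go apart: Atp6v0c, a subunit gene of the lysosomal proton pump, had 5233 and 3111 counts, its copy Atp6v0c-ps2 had 9 and 2420, and their sum was 1.05-fold higher (1.01 to 1.09).

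**Figure D3:**
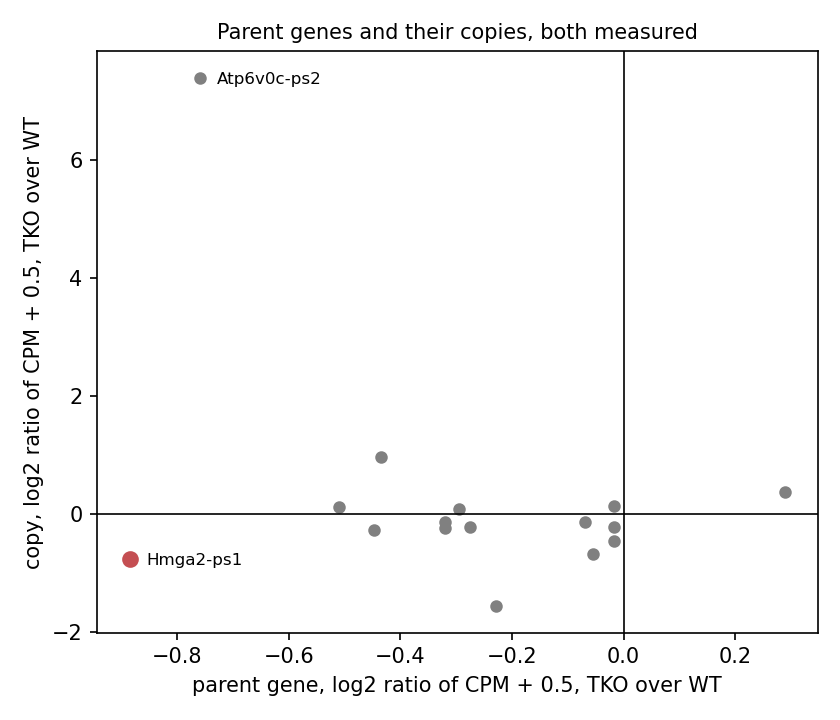
Log2 ratio of the parent gene (x axis) and of its copy (y axis), TKO over WT, for the 16 pairs with both measured; the HMGA pair is in red. Hmga2 with Hmga2-ps1 lies at −0.88 and −0.76, and Atp6v0c with Atp6v0c-ps2 at −0.76 and 7.39.

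The genes next to the HMGA genes were close to equality. Over all measured genes 5.26% lay lower and 2.83% higher by the 1.5-fold rule, so few in any 10 genes are called. Among the 10 measured neighbours of Hmga1, 5 on each side, 0 were 1.5-fold apart and the median log2 ratio was 0.01. The lowest was −0.27 and the highest 0.32. The nearest were Lemd2 (−0.16), a nuclear envelope gene, and Uqcc2 (−0.01), an assembly factor gene of respiratory complex III, on the lower side, and AI413582 (−0.12) and Nudt3 (−0.21), a diphosphoinositol phosphatase gene, on the upper. AI413582, with 136 and 126 counts, overlaps the 3' end of Hmga1 on the other strand in GENCODE, and the counting's strand setting is not given in the sources used here. Of the 10 neighbours of Hmga2, 0 were 1.5-fold apart and the median was 0.01, with a lowest of −0.24 and a highest of 0.21. The nearest were Llph at 0.13, Tmbim4 at 0.12, Msrb3, a methionine sulfoxide reductase gene, at −0.24 and Lemd3, another nuclear envelope gene, at 0.16.

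The 3' UTR matches were compared with all 11146 measured genes with an annotated 3' UTR. A miR-17 site (GCACTTT, 7 letters on the transcript strand) was present in 15.5% of them, with a median log2 ratio of 0.01 against −0.05 for genes without one. Hmga2, with 1 such site and a log2 ratio of −0.88, was lower in the TKO library. No match to the miR-18 site GCACCTT, the miR-19 site TTTGCAC or the miR-92 site GTGCAAT was found in the 3' UTR of either gene. These are counts of letters, not of bound sites.

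For let-7 (site CTACCTC), 12.1% of genes had at least 1 match, and 8 genes, 0.0718%, had at least the 4 that Hmga2 has. The median log2 ratio was −0.05 for genes without a match and −0.02 for the 1349 genes with at least 1. It was −0.23 for the 8, which include Hmga2 itself. Of the 17 Hmga1 transcripts with an annotated 3' UTR, 6 held the let-7 match. Of the 2 of Hmga2, both held let-7 matches and the miR-17 match.

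Among 15 genes of let-7 biology, 12 had a row and 11 were measured. In TKO 2 of them lay lower by 1.5-fold or more and 0 lay higher, around a median log2 ratio of −0.10. All measured genes had a median of −0.04, with 613 of 11662 lower (5.26%) and 330 higher (2.83%) by the same rule. Igf2bp2, an RNA-binding protein gene that HMGA2 is known to activate, had 550 and 283 counts and was 1.96-fold lower (1.69 to 2.27). Nr6a1, a germ-cell nuclear receptor gene, had 59 and 36 counts and was 1.65-fold lower (1.07 to 2.57). Nras, a let-7 target and signalling GTPase, was 1.07-fold lower (1.01 to 1.15). Lin28a, Lin28b and Trim71, which were chosen after their values were looked for, had no row among the genes analysed here.

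Of 8 genes linked to HMGA2 in other cells, 7 were measured. By 1.5-fold or more 2 lay lower and 1 higher, around a median of −0.31. Among all measured genes 5.26% lay lower and 2.83% higher by this rule, around a median of −0.04. Snai1, a regulator of epithelial-mesenchymal transition, had 24 and 7 counts and was 3.45-fold lower (1.44 to 9.49). Igf2bp2 was the other lower gene. Cdkn2b, an inhibitor of cyclin-dependent kinases, had 12 and 27 counts and was 2.23-fold higher (1.09 to 4.84). Snai1 and Cdkn2b rest on few counts.

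Genes whose promoters HMGA1 is known to occupy went in both directions. Of 9, 8 were measured, 6 with log2 ratios below 0, as were 57.4% of all measured genes, and 2 above. By 1.5-fold or more 1 lay higher and 2 lower, around a median of −0.24. Of all measured genes, 2.83% lay higher and 5.26% lower by this rule, around a median of −0.04. The median of the list was −0.08 with no filter on low counts and −0.57 at a mean of at least 10 CPM, so its size depends on which genes are kept. The neutrophil chemokine gene Cxcl1 had 2176 and 4877 counts and was 2.23-fold higher (2.12 to 2.34). The insulin receptor gene Insr, with 176 and 81 counts, was 2.19-fold lower (1.67 to 2.88), and the adhesion molecule gene Vcam1 was 1.68-fold lower (1.48 to 1.92). Ptgs2, named after its values were seen, had 21311 and 14415 counts. It was 1.49-fold lower (1.46 to 1.52), just short of the rule.

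Of the proteins that assemble with HMGA1 on the interferon-beta enhancer, and the gene itself, 12 of 13 were measured. By 1.5-fold or more 0 were apart, with a median of 0.02. Of all measured genes 5.26% lay lower and 2.83% higher by this rule, around a median of −0.04, so 0 of 12 is near that share. The NF-κB subunit gene Nfkb1 was 1.12-fold higher (1.09 to 1.15), the interferon regulatory factor genes Irf7 1.24-fold higher (1.18 to 1.30) and Irf1 1.04-fold lower (1.00 to 1.07). Ifnb1 itself, named after its values were seen, had 6 and 9 counts, and a difference was not detectable at this depth.

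Of 8 HMGB and HMGN genes 7 were measured, 6 with log2 ratios below 0, as were 57.4% of all measured genes. By 1.5-fold or more 0 of the 7 were apart, and their median was −0.20. Among all measured genes 5.26% lay lower and 2.83% higher by this rule, around a median of −0.04. Hmgb1, which encodes a DNA-bending protein and alarmin, had 3758 counts in WT and 3313 in TKO and was 1.14-fold lower. Its relative Hmgb2 had 2910 and 2317 and was 1.26-fold lower, and Hmgn2, which encodes a nucleosome-binding protein, had 3105 and 2717. Of 9 linker histone genes 3 were measured: H1fx was 1.96-fold lower (1.40 to 2.76), while H1f0 had 375 and 386 counts and Hist1h1c 123 and 141.

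By 1.5-fold or more, 5.26% of all measured genes lay lower and 2.83% higher. Among 12 other AT-hook genes, 11 were measured and 1 was 1.5-fold apart, with a median of −0.02. That gene, Ahdc1, had 60 and 37 counts and was 1.63-fold lower (1.07 to 2.53), while the immune regulator gene Akna (3954 and 4181 counts) and the chromatin remodeller gene Smarca4 (2506 and 2504) were close to equality. Of 10 enzymes that modify HMGA proteins, all measured, 0 were 1.5-fold apart and the median was −0.03. Crebbp, an acetyltransferase gene, was 1.25-fold higher (1.15 to 1.37), its relative Ep300 had 2133 and 2117 counts, and Csnk2b, a casein kinase 2 subunit gene, had 1280 and 1232.

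Most markers of stromal cells and some of division were lower in TKO, as the HMGA rows were. Of all measured genes, 5.26% lay lower in TKO by 1.5-fold or more and 2.83% higher, around a median of −0.04. Of 15 fibroblast and stromal markers 14 were measured, and 11 of these lay lower in TKO by 1.5-fold or more and 0 higher, around a median of −1.21. Their summed level was 642 CPM in WT and 259 in TKO, 0 of the 15 were at 0 in either library, and Timp3 was 3.91-fold lower (3.33 to 4.61), Col1a1 3.76-fold (3.42 to 4.14) and Col3a1 3.64-fold (2.72 to 4.93). These encode matrix proteins and an inhibitor of matrix proteases. The surface markers of the list, named after their values were seen, were not lower by that rule: Pdgfrb had 478 and 510 counts, Thy1 33 and 39, and Pdgfra 32 and 30. Of 20 proliferation genes, 18 lay below equality, where 57.4% of all measured genes lay, around a median of −0.42. The summed levels of the 20 were 2918 and 2446 CPM. Lower by 1.5-fold or more were 3 of the 20, against 5.26% of all measured genes. Those 3 were Ccne1 (1.95-fold, 1.36 to 2.83), Aurka (1.68-fold, 1.44 to 1.95) and Tk1 (1.57-fold, 1.31 to 1.89).

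Blood progenitor markers had few counts, at most 49 in a library. Of 10, 4 were measured, and summed levels were 12.3 CPM in WT and 9.32 in TKO. Hoxa9 and Prtn3 were at 0 in TKO and had only 1 and 3 counts in WT. For a count of 0, 3 counts were set as a rough upper limit, which is not the exact Poisson interval used elsewhere. Cd34 had 49 and 26 counts (1.90-fold lower, 1.16 to 3.18), Meis1 32 and 26, and Mpo 12 and 18. The part of stromal, progenitor or dividing cells in the HMGA values was not tested.

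**Figure D4:**
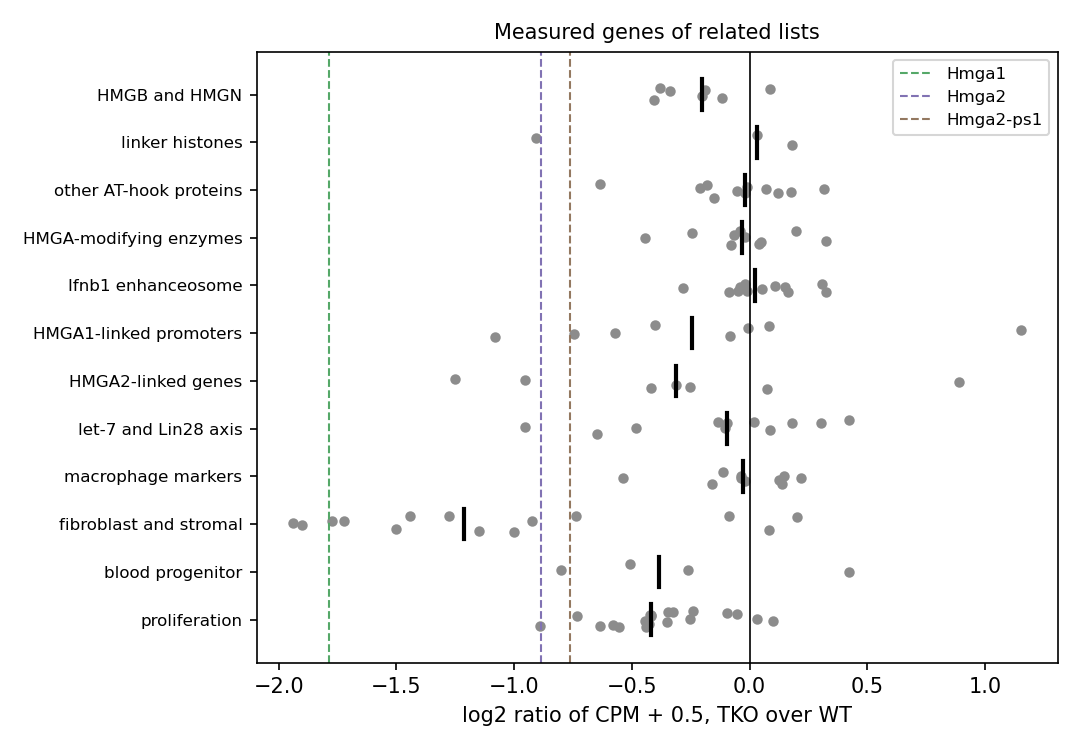
Log2 ratio (TKO over WT) of each measured gene of the related lists (points, spread vertically for visibility; a gene in several lists is drawn in each), with the list median as a black bar and the values of Hmga1, Hmga2 and Hmga2-ps1 as dashed lines. The fibroblast and stromal list has the lowest median, −1.21, and the macrophage list lies at −0.03.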

How the data were processed

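Per the submitters' processing notes, HISAT2 2.0.4, Bowtie2 2.2.5, RSEM 1.2.12 and build mm10 were used. Their roles, the annotation and strandedness are not given in the sources used here. Estimated counts per gene, as the authors deposited them, were rounded to whole numbers. FPKM were used as the authors deposited them, with 0.01 standing for 0. The authors' deposited log2 ratio equals that of their FPKM when recomputed. The deposited p-value and its adjusted value, a score that passes 1, come from an unnamed test of the 2 libraries and were not used. The deposited gene length, another column per the file headers, was not used.

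The 1 entry of 16219 without a symbol was left out, and 23 symbols turned into dates were restored from RefSeq (GRCm38.p6). CPM used library totals. Intervals are exact (Clopper-Pearson, conditional binomial, or Poisson) at 95% and cover counting error only, since each genotype had 1 library. PCR copies are not independent molecules, and the intervals make no allowance for them. With 1 library per genotype there is no test and no p-value. Calls needed a log2 ratio of CPM + 0.5 past 2-fold or 1.5-fold and an interval leaving out equality. The intervals and the 2-fold calls were tried on simulated counts, which cannot show how much real cultures differ from each other. No such trial is reported for the 1.5-fold calls, on which the gene lists rest. TMM factors came from edgeR 4.0.16 and size factors from DESeq2 1.42.0. 3' UTRs and transcripts were those of GENCODE M21 (GRCm38).

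Members and lists were chosen with earlier results of these data known. Named genes are the 3 members and, per list, up to 3 measured genes: those farthest apart among genes past 1.5-fold, then the most abundant. Also named are the 2 nearest neighbours on each side and, per HMGA row, the 3 measured genes nearest in log2(CPM + 0.5) over both libraries. A comparison of HMGA proteins was not made, and 1 further result is not reported here.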

Additional observations from a re-analysis of the deposited data

How the results depend on the processing

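The 5 HMGA differences (3 rows and 2 sums) were recomputed with TMM and DESeq2 scaling, pseudocounts of 0.1 and 1 CPM, unrounded counts and the deposited FPKM. Of 30 such values, 29 stayed within the counting interval and 0 changed sign. The exception was the sum of Hmga1, Hmga2 and Hmga2-ps1, −1.77 by FPKM against −1.66 on the log2 scale. Hmga1 ranged from −1.84 to −1.74, Hmga2 from −0.90 to −0.84, and Hmga2-ps1 from −0.87 to −0.68. Over the whole table, 315 genes were 2-fold apart, 196 lower and 119 higher. At a mean of at least 10 CPM, which keeps fewer genes, these were 121, 72 and 49, and with no filter on low counts 447, 281 and 166. A pseudocount of 0.1 CPM gave 410, 266 and 144, and a pseudocount of 1 CPM gave 219, 126 and 93. Of the 14 list and neighbour medians, 9 kept their sign. The other 5, for linker histones, other AT-hook genes, HMGA-modifying enzymes, the let-7 genes and macrophage markers, lay near 0 and changed sign under at least 1 setting, so their direction is not read. Among the 9, that of genes at HMGA1-occupied promoters ranged from −0.57 to −0.08 and that of blood progenitor markers from −0.49 to −0.25, while those of the enhancer proteins (up to 0.07) and the neighbours (up to 0.06 and 0.12) lay near 0. The let-7 match of Hmga1 was absent from its shortest annotated 3' UTR (0 against 1). No paired analysis was possible because each genotype had 1 library. With 1 library per genotype, depth limits only the counting error, which was widest for Hmga2-ps1.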

Other observations

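Genes at the level of each HMGA row in both libraries are named by their distance over 2 values, which measures likeness of level only. Hmga1 had Pfkfb3 (3543 and 1239 counts), which encodes an activator of glycolysis, at a distance of 0.19, followed by Il4ra at 0.42 and the metallothionein gene Mt1 at 0.57. Nearest to Hmga2 came Pkmyt1, the gene of a kinase that restrains entry into mitosis (390 and 218 counts, distance 0.07), Plekhg2 (0.08) and Aebp1 (0.10). Around Hmga2-ps1 lay AK010878 (0.04), Gm15350 and Zc4h2 (both 0.05).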
